A study of Mus musculus with 60 samples.

Results

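The CXC family was followed here through 10 of its genes in 15 resting tissues: the ligands Cxcl1, Cxcl2, Cxcl5, Cxcl9, Cxcl10, Cxcl14, Cxcl15 and Cxcl16 and the receptors Cxcr2 and Cxcr3. The genes were taken by symbol, which gave 10 rows of the 54532 in the deposited count table. All 10 had enough counts to be among the 18562 genes tested. The mice were female C57BL6/J, 6 weeks old, with no treatment named, and were perfused through the heart with phosphate-buffered saline and EDTA before dissection. Each tissue has 4 libraries, 60 in all, made from the 3' ends of polyadenylated RNA. The immune tissues were blood, bone marrow, spleen, thymus, mesenteric lymph node and inguinal lymph node. Blood is described as peripheral mononuclear cells in its title but as whole blood in its tissue label, and it is called blood here. The barrier tissues were skin, lung, female reproductive tract, small intestine and colon, and the internal organs were brain, heart, kidney and liver. The labels do not say that a replicate number marks one mouse across tissues or that libraries come from separate mice, so p-values measure the spread between these libraries.

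CXC chemokines are small secreted proteins that direct leukocytes along concentration gradients through G protein-coupled receptors. In mice, Cxcl1, Cxcl2 and Cxcl5 bind Cxcr2 and recruit neutrophils, and are known mainly as products of inflamed epithelium, stroma and myeloid cells. Cxcl9 and Cxcl10 are induced by interferons and bind Cxcr3, a receptor of activated T cells and natural killer cells. Cxcl16 is made as a membrane protein that can be shed and binds Cxcr6. Cxcl14 is known as a chemokine that healthy epithelia make constitutively, and Cxcl15, or lungkine, as a product of mouse airway epithelium.

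Of the 10 genes, 6 lie on chromosome 5 (mm10). Cxcl5 (90759360 to 90761624), Cxcl15 (90794534 to 90803067), Cxcl1 (90891241 to 90893115) and Cxcl2 (90903871 to 90905938) run on the plus strand, and Cxcl9 (92321347 to 92328079) and Cxcl10 (92346638 to 92348889) on the minus strand. The proximal promoters of both inducible pairs are shown because Cxcl1 and Cxcl2, like Cxcl9 and Cxcl10, stand side by side in the genome. The genes of each pair had their highest means in different tissues, but the pairs differed in likeness. Pearson's r of log2(mean CPM + 1) over the tissues was 0.33 for Cxcl1 and Cxcl2 and 0.83 for Cxcl9 and Cxcl10. Cxcl1 and Cxcl2 had 253 and 398 reads in all, against 4529 and 1137 for Cxcl9 and Cxcl10, and fewer reads can lower r. Cxcl14 lies on chromosome 13 (56288643 to 56296551, minus strand), Cxcl16 on 11 (70453983 to 70459984, minus), Cxcr2 on 1 (74153989 to 74161246, plus) and Cxcr3 on X (101731535 to 101734269, minus). Each sequence is the 250 bases before the start of the gene in RefSeq on GRCm38.p6, 5′ to 3′ on the strand of the gene: chr5:90890995-90891244 for Cxcl1, chr5:90903649-90903898 for Cxcl2 (both plus strand), chr5:92328080-92328329 for Cxcl9 and chr5:92348890-92349139 for Cxcl10 (both minus strand). Capitals mark a match to a kappaB decamer, whose 10 letters are those in capitals in Cxcl1 and Cxcl2, or to the core of an interferon-stimulated response element, GAAA followed after any 2 bases by GAAA.
Cxcl1: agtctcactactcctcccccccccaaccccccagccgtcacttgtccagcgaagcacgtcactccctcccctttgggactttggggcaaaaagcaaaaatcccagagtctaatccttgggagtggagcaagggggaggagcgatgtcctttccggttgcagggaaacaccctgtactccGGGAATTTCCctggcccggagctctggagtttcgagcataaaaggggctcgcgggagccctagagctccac
Cxcl2: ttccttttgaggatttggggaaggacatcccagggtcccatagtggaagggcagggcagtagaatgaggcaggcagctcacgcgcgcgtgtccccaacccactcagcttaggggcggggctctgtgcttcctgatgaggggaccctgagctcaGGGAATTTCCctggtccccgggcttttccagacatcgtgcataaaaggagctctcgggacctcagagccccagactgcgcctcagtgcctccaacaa
Cxcl9: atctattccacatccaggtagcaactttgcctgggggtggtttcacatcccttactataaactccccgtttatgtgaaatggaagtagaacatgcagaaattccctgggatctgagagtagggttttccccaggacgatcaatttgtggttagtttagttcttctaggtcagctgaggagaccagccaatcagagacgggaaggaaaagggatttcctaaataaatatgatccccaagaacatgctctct
Cxcl10: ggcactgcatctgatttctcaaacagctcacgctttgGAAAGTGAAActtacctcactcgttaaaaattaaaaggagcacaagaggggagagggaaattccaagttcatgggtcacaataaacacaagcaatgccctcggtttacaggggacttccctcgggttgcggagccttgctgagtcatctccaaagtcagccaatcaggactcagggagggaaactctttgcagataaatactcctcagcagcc
Both strands were searched. The kappaB decamer was found 71 bases before the start of Cxcl1 and 97 before that of Cxcl2, and in 28 of 32851 mouse promoter windows of the same length (0.0852%). The response element core stood 213 bases before the start of Cxcl10 and 172 before that of Cxcl14, and in 2.98% of windows. The window of Cxcl9 held neither. Of kappaB sites only this exact decamer was searched, and its share of windows holds for that string alone. A window without it may hold another form of the site. The motif TTCNNNGAA was found in that of Cxcl14 alone among the members (7.02% of windows), and TATAAA in those of Cxcl15 and Cxcl9 (12.4% of windows). Cxcr2 and Cxcr3 held none of the 4 motifs. A match describes letters in the window only. Promoters of 8 of the 10 members were matched, and those of Cxcl5 and Cxcl16 were not analysed here.

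Levels are given in CPM, read counts relative to the library total after scaling by the trimmed mean of M-values (TMM), and library totals ran from 353605 to 5211133 counts with a median of 2649668. Tissue labels were checked against marker genes, and 60 of 60 libraries were closest to one of their own tissue. The markers of heart, kidney, liver, brain, lung, skin, bone marrow, thymus and the female reproductive tract were all highest in their tissue. Libraries differed most within the female reproductive tract, with a median rank correlation within the tissue of 0.873 to 0.918 per library, where no other tissue fell below 0.949. Its 4 libraries summed to 1756, 788, 1092 and 39.99 CPM over 6 keratinocyte genes, and the third was also the shallowest of the study. In whole tissue, fewer cells of a type and less RNA per cell cannot be told apart. Levels are compared between tissues for a gene and not between genes.

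**Figure D1:**
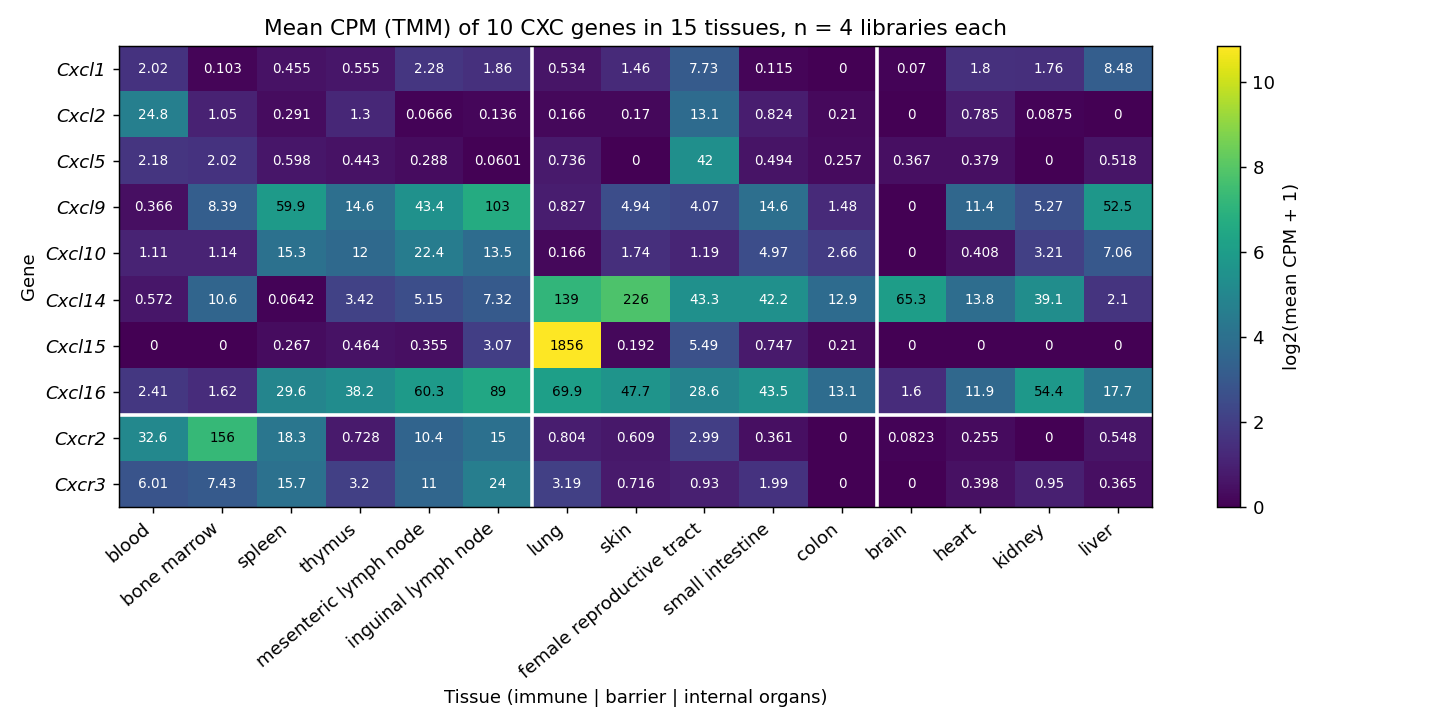
Mean CPM of each gene (rows) in each tissue (columns), with 4 libraries per tissue; colour gives log2(mean CPM + 1) and each cell prints the mean CPM. Cxcl15 is bright in lung alone at 1856 CPM, Cxcl16 is above 10 CPM in 12 tissues, and Cxcr2 is highest in bone marrow at 156 CPM.

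Each tissue was first set against the equally weighted mean of the other 14 with edgeR's quasi-likelihood test and Benjamini-Hochberg adjustment over all tested genes. Calls needed an adjusted p below 0.05 together with a log2 fold change beyond 1 in size. Over the 10 members and 15 tissues there were 52 calls of a higher level and 9 of a lower one, where 19.4% and 11.2% of all gene and tissue pairs were called. The inguinal lymph node had the most members called higher, 7, and none lower, where 17.1% of all genes were called higher and 6.7% lower. In the female reproductive tract 6 were higher and none lower (23.1% and 5.31% of all genes), and in the mesenteric lymph node 6 and none (17.2% and 4.58%). Blood had 5 higher and 2 lower (18.1% and 17.8%), thymus 5 and 1 (18.9% and 12.1%) and spleen 4 and 1 (17.8% and 9.16%). Lung had 4 higher (16.8%) and none lower (12.3%), and small intestine 4 (19.9%) and none (8.5%). Bone marrow had 3 higher and 1 lower (17.6% and 16.1%), and liver 3 and 1 (18.4% and 16.7%). Skin and kidney had 2 higher each (18.4% and 21.8%) and none lower (6.38% and 9.52%). Brain was the one tissue with more members called lower, 3, than higher, 1 (16.1% and 27.7%). No member was called in colon, where 17.7% of all genes were called higher and 14.4% lower, or in heart (20.7% and 12.9%). Except for Cxcl14 and Cxcl16, every member had at least 1 tissue without a read. A fitted fold change of those genes leans on the small prior count of the test, and a lower level cannot be tested where another tissue is also at 0. The counts of lower calls by tissue, with that of brain, hold for this edgeR test alone. Many more lower calls were made with DESeq2's Wald test or limma-trend. With limma-trend in place of edgeR, the higher calls of Cxcl1 outside liver, of Cxcl5 in blood and bone marrow, of Cxcl9 in small intestine and thymus, of Cxcl10 in small intestine and of Cxcl15 in inguinal lymph node were lost. So were those of Cxcl2, Cxcl16 and Cxcr3 in thymus, Cxcr3 in lung and Cxcr2 in the female reproductive tract.

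Cxcl1 was low at rest. The liver libraries held 8.75, 7.25, 11.3 and 6.61 CPM of Cxcl1, from 9 to 17 reads each. Libraries of the female reproductive tract held 1.70, 1.16, 0 and 28.1 CPM. The fourth library there stood far above the other 3, and the liver libraries all lay between it and them. Liver was called higher than the other 14 tissues (log2 fold change 3.58 ± 0.53 SE, adjusted p = 4.74e-08). With library totals in place of TMM, liver averaged 4.25 CPM, below the female reproductive tract at 9.03 CPM. The female reproductive tract was also called (3.11 ± 0.56, adjusted p = 3.82e-06), but without its replicate 4 the change was 0.99 with an adjusted p of 0.125. Blood was called (1.58 ± 0.63, adjusted p = 0.0274) on 1 library with 18 reads, and without that library, replicate 3, the fitted change was -0.51. The calls in the mesenteric (1.59 ± 0.55, adjusted p = 0.0137) and inguinal (1.27 ± 0.52, adjusted p = 0.0361) lymph nodes rested on 33 and 37 reads. They were lost without mesenteric replicate 1 (adjusted p = 0.0888) and without inguinal replicate 1, 2 or 4 (adjusted p = 0.0798, 0.0812 and 0.0786). Colon had no Cxcl1 read, which allows up to 0.684 CPM.

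Cxcl2, the closest neighbour of Cxcl1, had another distribution. Its blood libraries held 11.9, 8.43, 58.1 and 20.6 CPM. Those of the female reproductive tract held 7.998, 3.49, 0 and 40.8 CPM, and the 0 came from the library of 353605 counts. No other library of any tissue passed 2.96 CPM, so all 4 blood libraries and 3 of 4 from the reproductive tract stood above every other tissue. Blood was called higher than the other 14 tissues (log2 fold change 6.17 ± 0.39, adjusted p = 8.62e-20), as was the female reproductive tract (5.04 ± 0.50, adjusted p = 2.08e-12). Leaving out blood replicate 3 brought the blood mean of 24.8 CPM to 13.7 CPM, and the change to 5.29, still called. Without replicate 4 the change in the female reproductive tract was 3.87, still called. Thymus was called on 18 reads (1.69 ± 0.67, adjusted p = 0.0271), a call lost without its replicate 1 (adjusted p = 0.0812) or 3 (adjusted p = 0.121). Liver and brain had no Cxcl2 read, which puts the blood mean at least 47.3-fold above liver and at least 109.9-fold above brain, with the floor of 3 counts taken over the 4 libraries of a tissue. Without blood replicate 3 these bounds were 26.1 and 60.6.

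Cxcl5 was concentrated in the female reproductive tract. That tissue held 95.7, 33.99, 10.4 and 28.1 CPM, from 395, 146, 5 and 33 reads, and made up 83.4% of the summed tissue means. The lowest of these, 10.4 CPM, stood above every library of the other 14 tissues, where the highest was 4.66 CPM in blood. The call against the other tissues had an adjusted p of 5.76e-28, and without replicate 1 the mean of 42.05 CPM became 24.15 CPM with the call kept. Skin had no Cxcl5 read, and neither had kidney. Blood (2.18 ± 1.79 CPM, SD, n = 4) and bone marrow (2.02 ± 0.95 CPM) were called higher as well, at adjusted p of 0.000191 and 0.000905, on 22 and 20 reads. Both calls were lost with limma-trend, where the changes were 0.88 and 0.91.

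The libraries of the female reproductive tract did not rank alike for the 3 ligands. Replicate 4, the lowest in the keratinocyte list and the highest in a list of 8 lung epithelial genes (683 CPM, of which 631 CPM were Sftpd, against 42.2 to 150 in the other 3), was the highest for Cxcl1, Cxcl2 and Cxcl16 (60.4 CPM against 13.7 to 22.8 in the other 3). Scgb1a1 and Sftpc of the lung list were highest in replicate 3 (64.4 and 26.996 CPM, against 27.2 and 14.5 CPM in replicate 4). Replicate 1, the highest in the summed keratinocyte list, was the highest for Cxcl5, Cxcl14, Cxcl15 and Cxcr2. The keratinocyte ranks are those of a sum without weights, in which the most abundant genes count most. Single genes of that list may rank the libraries otherwise, so the sum does not show which library held the most keratinocyte RNA. In replicate 4 the Nf-kB regulator Nfkbiz was at 149 CPM, against 17.2 to 18.7 CPM in the other 3. Nfkbiz is an inducible co-activator of inflammatory genes. In replicate 1 the cytokine gene Il1b was at 36.4 CPM, against 0.851 to 8.61 CPM in the others. Whether the make-up of the dissected pieces had a part in these levels was not tested.

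**Figure D2:**
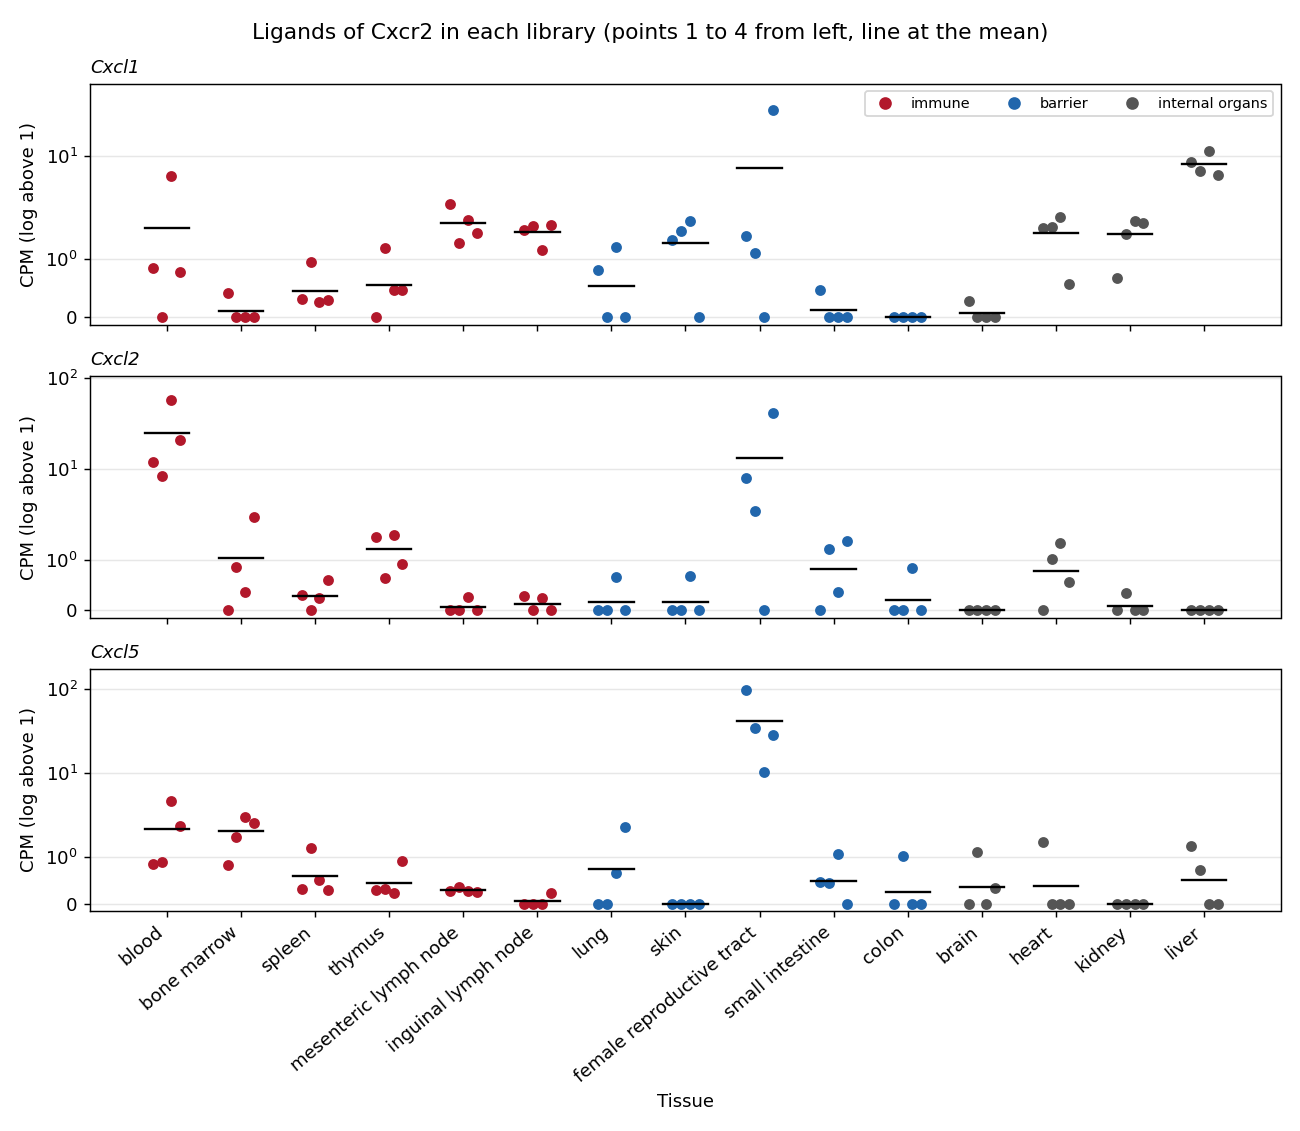
CPM of Cxcl1, Cxcl2 and Cxcl5 in each of the 60 libraries, by tissue; points are replicates 1 to 4 from left, lines are means, and the axis is linear up to 1 CPM and logarithmic above. Single libraries reach 28.1 CPM of Cxcl1 in the female reproductive tract and 58.1 CPM of Cxcl2 in blood, while Cxcl5 is above 5 CPM in the 4 libraries of the female reproductive tract alone.

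Among 14 inducers and regulators of inflammatory transcription, 8 of the 12 tested were called higher and 1 lower in blood (median log2 fold change 1.54, against -0.18 over all genes, of which 18.1% were called higher and 17.8% lower). Il1b, a cytokine that induces these ligands, held 182, 172, 112 and 174 CPM in blood, and 35.1, 33.7, 35.9 and 33.02 CPM in bone marrow. Zfp36, which destabilises mRNAs including those of CXC ligands, was at 324 ± 24.3 CPM in blood. The library with the most Cxcl2, blood replicate 3, had the least Il1b. In the female reproductive tract 3 of the 12 were called higher and 2 lower, where 23.1% of all genes were called higher and 5.31% lower. Il17a had no read in any tissue.

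Cxcl9 was found in 50 of the 60 libraries and averaged at least 5 CPM in 9 tissues. The inguinal lymph node held 143, 106, 73.7 and 88.4 CPM. Spleen held 63.2, 63.9, 51.6 and 60.96 CPM, the liver 59.3, 44.2, 62.5 and 44.04 CPM, and the mesenteric lymph node 55.96, 49.1, 37.8 and 30.8 CPM. All inguinal libraries stood above those of every other tissue, and the libraries of spleen and liver, as those of liver and mesenteric lymph node, overlapped. Thymus followed at 14.6 ± 0.81 CPM and small intestine at 14.6 ± 4.47 CPM. Lung was at 0.827 CPM and blood at 0.366 CPM, and brain had no read, which allows up to 0.225 CPM and puts the inguinal lymph node mean at least 457-fold above it.

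The calls of Cxcl9 were higher in inguinal lymph node (log2 fold change 4.29 ± 0.15, adjusted p = 9.81e-32), spleen (3.45 ± 0.17, adjusted p = 1.53e-24), liver (3.25 ± 0.21, adjusted p = 2.56e-20), mesenteric lymph node (2.95 ± 0.19, adjusted p = 2.89e-20), small intestine and thymus. Liver was the one internal organ among them. With library totals in place of TMM its mean was 26.4 CPM, and the mesenteric lymph node, at 55.1 CPM, ranked above it. Heart, at 11.4 ± 4.23 CPM, was below the fold threshold (0.89 ± 0.27, adjusted p = 0.00404).

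Cxcl10 was lower in count and had its highest mean in another tissue. The mesenteric lymph node held 19.5, 40.7, 20.2 and 9.23 CPM, spleen 16.1, 19.4, 15.1 and 10.8 CPM, the inguinal lymph node 15.2, 25.6, 7.19 and 6.01 CPM and thymus 14.5, 9.68, 13.9 and 10.1 CPM. These 4 tissues overlapped throughout. Each was called higher than the other 14, with log2 fold changes of 3.46 ± 0.26 in the mesenteric lymph node, 2.91 ± 0.28 in spleen, 2.73 ± 0.27 in the inguinal lymph node and 2.55 ± 0.29 in thymus (adjusted p at most 6.64e-11). Liver (7.06 ± 2.67 CPM) and small intestine (4.97 ± 2.00 CPM) were called as well. The call in small intestine was lost without its replicate 3 (0.91, adjusted p = 0.0768), and that in liver with library totals in place of TMM (0.66, adjusted p = 0.0897). Brain had no read of Cxcl10 and was called lower, as it was for Cxcl9 (16.1% of all genes were called lower in brain). The call for Cxcl10 was lost without the libraries of replicate 3 (adjusted p = 1.00). Cxcl10 overlaps Art3 on the opposite strand, and without a stated strand setting their reads cannot be told apart.

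The balance of these Cxcr3 ligands shifted between tissues. Over pooled reads there were 7.69 Cxcl9 reads per Cxcl10 read in the inguinal lymph node (2138 and 278 reads), 7.39 in liver (303 and 41) and 3.89 in spleen (810 and 208). The ratio was 2.04 in the mesenteric lymph node (607 and 297) and 1.19 in thymus (190 and 160). Per library it was 4.16 to 14.7 in the inguinal node, 1.21 to 3.33 in the mesenteric node and 1.07 to 1.47 in thymus. The ranges of these 3 tissues did not overlap except between mesenteric node and thymus.

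Cxcr3 followed the lymphoid organs. The inguinal lymph node held 32.4, 24.1, 19.1 and 20.2 CPM, spleen 17.6, 18.4, 10.8 and 15.8 CPM and the mesenteric lymph node 10.9, 14.5, 10.4 and 7.95 CPM. The inguinal libraries were all above the others, and spleen and mesenteric node overlapped. Bone marrow (7.43 ± 1.83 CPM) and blood (6.01 ± 1.21 CPM) came next. Calls were higher in inguinal lymph node (4.15 ± 0.20, adjusted p = 7.79e-25), spleen, mesenteric lymph node, bone marrow and blood, and less firmly in thymus (1.10 ± 0.31, adjusted p = 0.00192) and lung (1.08 ± 0.39, adjusted p = 0.0196). Without thymus replicate 2 the change there was 0.76, short of the fold threshold, and without lung replicate 3 it was 0.67 in lung with an adjusted p of 0.186. Colon and brain had no read. Thymus summed to 2357 to 2783 CPM over 13 T and NK cell genes and the inguinal node to 1165 to 1461 CPM, so Cxcr3 did not rank these 2 tissues as that list did.

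**Figure D3:**
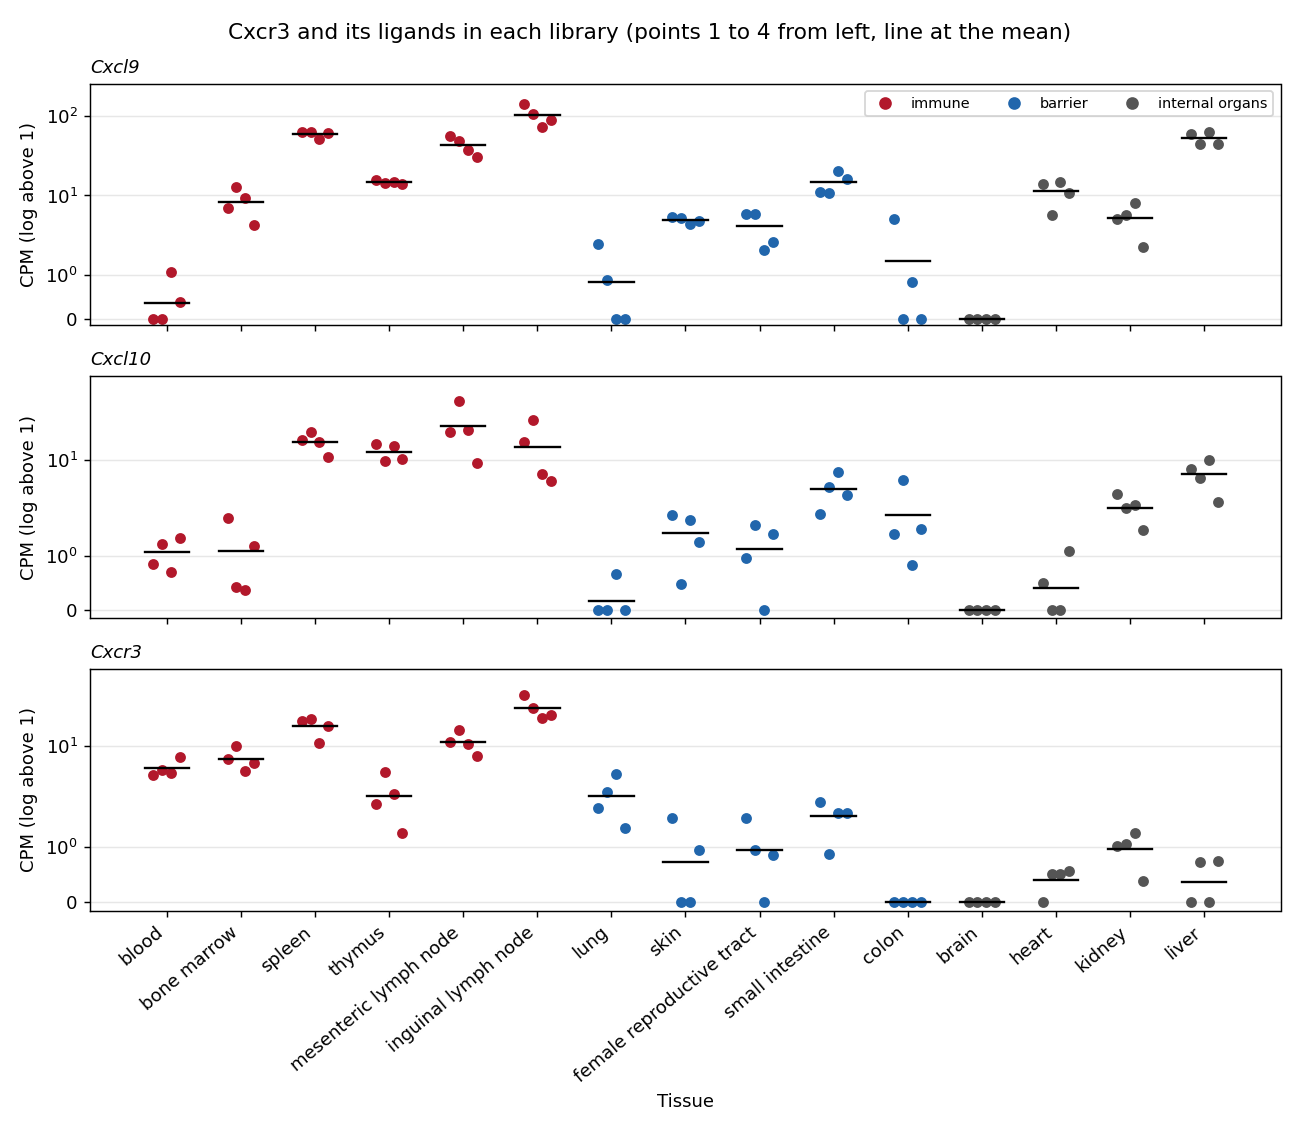
CPM of Cxcl9, Cxcl10 and Cxcr3 in each of the 60 libraries, by tissue; points are replicates 1 to 4 from left, lines are means, and the axis is linear up to 1 CPM and logarithmic above. The 4 inguinal lymph node libraries lead for Cxcl9 and Cxcr3, liver is near spleen for Cxcl9 at 52.5 CPM but low for Cxcr3 at 0.365 CPM, and brain is at 0 in all 3.

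Genes of the interferon gamma pathway were described from a list of 15, of which 14 were tested. In both lymph nodes and in spleen 9 of the 14 were called higher and none lower (medians 1.40 in inguinal node, 1.19 in mesenteric node and 1.06 in spleen, against 0.05, 0.02 and -0.03 over all genes). Of all genes 17.1%, 17.2% and 17.8% were called higher in these tissues. Irf1, an interferon-inducible transcription factor, was highest in inguinal node at 185 ± 25.4 CPM. In liver, 2 of the 14 were called higher and 4 lower, where 18.4% of all genes were called higher and 16.7% lower. Irgm2, an interferon-inducible GTPase, was highest there at 72.9 ± 5.12 CPM. Ifng itself gave 44 reads in inguinal node, 22 in spleen, 15 in blood and none in mesenteric node.

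Cxcl14 was highest in skin, lung and brain and close to 0 in spleen and blood. Skin held 223, 221, 227 and 233 CPM, lung 131, 146, 168 and 112 CPM and brain 60.5, 62.6, 71.7 and 66.5 CPM. These 3 tissues did not overlap each other. Female reproductive tract (71.3, 57.7, 14.5 and 29.8 CPM), small intestine (42.2 ± 5.34 CPM) and kidney (39.1 ± 3.71 CPM) followed and overlapped, and kidney lay wholly above heart (13.8 ± 4.45 CPM). All 6 were called higher than the other 14, with log2 fold changes of 4.63 ± 0.18 in skin (adjusted p = 1.96e-30), 3.88 ± 0.22 in lung (adjusted p = 6.53e-23) and 2.71 ± 0.22 in brain (adjusted p = 1.59e-16). Calls were lower in spleen (-7.01 ± 0.82, adjusted p = 7.31e-11; 9.16% of all genes were called lower), blood (17.8%), liver (16.7%) and thymus (12.1%). Without the libraries of replicate 3, spleen had no Cxcl14 read, and the adjusted p of the other 3 tissues was 1.00. The 4 spleen libraries together held 1 Cxcl14 read, against 2206 in skin. In brain Cxcl14 was the only member called higher (27.7% of all genes were).

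Cxcl14 was uneven in one lymphoid tissue. The inguinal node libraries held 1.33, 0.212, 18.6 and 9.13 CPM. Replicates 3 and 4, which stood above the other 2, also held more of the epithelial genes Krt8 (25.5 and 28.4 CPM, against 6.34 and 0.212 CPM) and Krt18 (39.4 and 41.3 CPM, against 8.26 and 0.423 CPM), both chosen after their values were seen. Epcam, another epithelial gene, differed less between them (26.5 and 14.9 CPM in replicates 3 and 4, against 11.9 and 4.87 CPM). The part of epithelium in these Cxcl14 reads was not tested.

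Cxcl15 was a lung gene. The lung libraries held 1701, 1960.5, 1883 and 1880 CPM, 99.4% of the summed tissue means, and every other library of the study was at or below 9.21 CPM. Its call in lung (16.8% of all genes were called higher there) had an adjusted p of 7.08e-41. Blood, bone marrow, brain, heart, kidney and liver had no read, and the lung mean was at least 3546-fold above liver and at least 8235-fold above brain. Female reproductive tract (9.21, 8.61, 4.15 and 0 CPM) and inguinal lymph node (1.03, 0.423, 7.69 and 3.12 CPM) held a little and were called higher than the other 14, at adjusted p of 4.93e-10 and 5.40e-06.

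Reads of Scgb1a1, the secretoglobin of airway club cells, were set beside those of Cxcl15. Lung held 50.6 Scgb1a1 reads per Cxcl15 read, and 48.0 to 55.7 in single libraries. Mesenteric lymph node (33.6), spleen (39.5) and thymus (35.1) were not far from this on 4 to 7 Cxcl15 reads each. Skin was far above it at 195 (390 and 2 reads), and colon held 37 Scgb1a1 reads beside 1 of Cxcl15. The female reproductive tract held 1.81 Scgb1a1 reads per Cxcl15 read (139 and 77 reads) and the inguinal node 5.32 (282 and 53 reads). In the reproductive tract replicates 1 and 2 the ratio was 1.00 and 1.03. Small intestine held 1 Scgb1a1 read beside 7 of Cxcl15. The part of lung RNA in these reads was not tested.

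Cxcl16 was the broadest member, with reads in 60 of 60 libraries. The inguinal lymph node held 120, 82.3, 71.9 and 82.0 CPM, lung 78.0, 74.0, 57.6 and 70.0 CPM and the mesenteric lymph node 65.8, 68.0, 54.04 and 53.4 CPM. These 3 overlapped in turn, and so did kidney (54.4 ± 6.52 CPM), skin (47.7 ± 2.71 CPM) and small intestine (43.5 ± 1.73 CPM) below them. Blood (2.41 ± 0.58 CPM), bone marrow (1.62 ± 0.84 CPM) and brain (1.60 ± 0.95 CPM) formed the bottom, wholly below heart at 11.9 ± 1.57 CPM. Calls were higher in 7 tissues, led by inguinal node (2.35 ± 0.12, adjusted p = 7.44e-25) and lung (1.97 ± 0.15, adjusted p = 6.44e-17), and that in thymus (1.05 ± 0.15) was lost under 8 alternatives. Its change was 0.91 to 0.99 with DESeq2's size factors or Wald test, with limma-trend, without each of the replicate numbers, and without 5 libraries in doubt that were chosen after seeing the data (female reproductive tract replicates 3 and 4, colon 2, brain 3 and liver 4). Calls were lower in brain (-3.84 ± 0.29), bone marrow (-3.79 ± 0.31; 16.1% of all genes were called lower) and blood (-3.21 ± 0.30), with adjusted p at most 2.82e-14.

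Its receptor Cxcr6, found on resident and activated T cells and natural killer T cells, was highest in the inguinal node at 30.5 ± 3.86 CPM, followed by spleen (14.5 ± 4.86 CPM) and mesenteric node (13.9 ± 2.13 CPM). Adam10 and Adam17, the proteases that shed Cxcl16, were read in every tissue, with the highest means of 170 ± 13.4 CPM in bone marrow and 70.0 ± 2.00 CPM in skin. Bone marrow was thus the highest tissue for Adam10 and among the lowest for Cxcl16. Cxcl16 overlaps Zmynd15 on the opposite strand, where reads cannot be assigned with certainty.

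Cxcr2 was highest in bone marrow, the site of neutrophil production. Bone marrow held 145, 162, 160 and 155 CPM, and blood 32.4, 39.5, 19.01 and 39.3 CPM, so that they did not overlap. Spleen held 21.1, 12.7, 20.8 and 18.5 CPM, inguinal node 16.8, 16.1, 16.9 and 10.3 CPM and mesenteric node 11.5, 9.82, 9.05 and 11.3 CPM. Each overlapped its neighbour in this order. All 5 were called higher than the other 14, from 7.15 ± 0.18 in bone marrow (adjusted p = 4.61e-37; 17.6% of all genes were called higher) to 2.98 ± 0.31 in mesenteric node (adjusted p = 8.24e-12), with 17.8% of all genes called higher in spleen. A call in the female reproductive tract (1.67 ± 0.40, adjusted p = 0.000424) rested on 40 of its 47 reads in 1 library, and without replicate 1 the change was -0.23. Colon and kidney had no Cxcr2 read.

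The lymph nodes held much Cxcr2 for the summed reads of their neutrophil genes. A list of 12 neutrophil genes summed to 35486 to 40174 CPM in bone marrow, 1296 to 2095 CPM in blood and 175 to 255 CPM in spleen. It summed to 38.2 to 105 CPM in inguinal node, 27.2 to 35.3 CPM in mesenteric node and 60.98 to 72.6 CPM in thymus. Per 1000 reads of the list there were 4.15 Cxcr2 reads in bone marrow, 17.8 in blood, 90.8 in spleen, 268 in inguinal node and 322 in mesenteric node. Thymus, with a larger neutrophil sum than the mesenteric node, had 11.3 and only 0.728 CPM of Cxcr2. In the mesenteric node the calprotectin gene S100a8 averaged 2.54 ± 1.51 CPM, against 53.7 ± 9.98 CPM in spleen, and Csf3r, the receptor of granulocyte colony-stimulating factor, 4.65 ± 2.49 CPM, against 10.6 ± 2.99 CPM in spleen. Csf3r thus fell far less than S100a8. The list was summed without weights, so its most abundant genes count most in these ratios. A ratio of Cxcr2 to Csf3r alone was not taken.

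**Figure D4:**
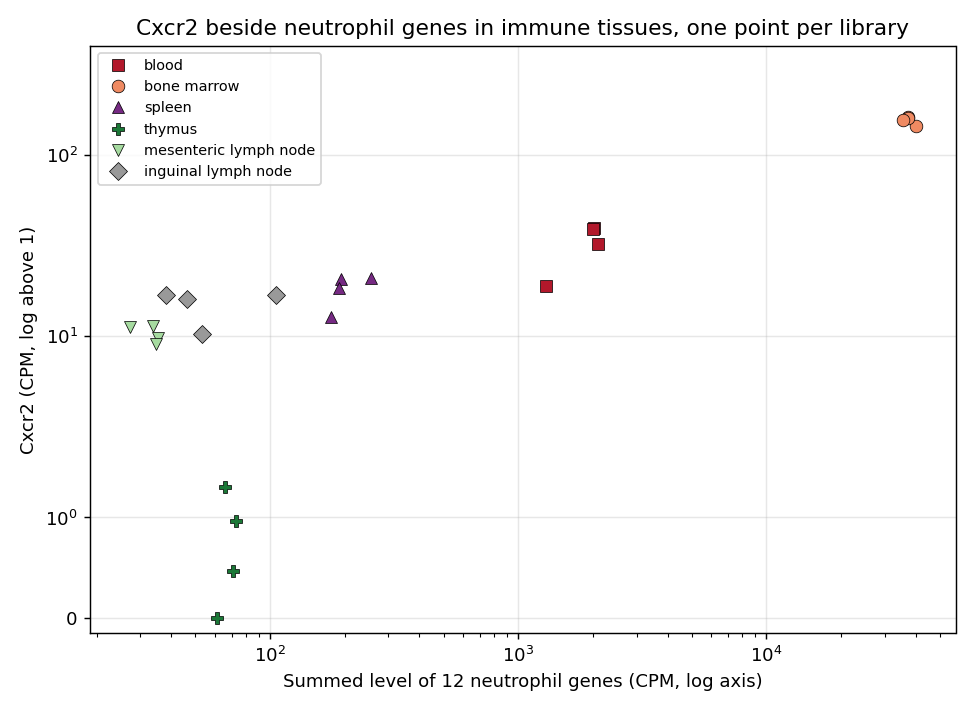
CPM of Cxcr2 (vertical, linear up to 1 and logarithmic above) against the summed CPM of 12 neutrophil genes (horizontal, logarithmic) in the 24 libraries of 6 immune tissues. Lymph node libraries lie between 9.05 and 16.9 CPM of Cxcr2 at neutrophil sums of 27.2 to 105 CPM, where thymus is at 1.47 CPM or less.

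Immune tissues together were then set against the other 9, with the error taken between libraries of a tissue. Of the 10 members 4 were called higher and 1 lower, against 19.4% and 19.1% of all genes. Cxcr3 (log2 fold change 4.15 ± 0.21, adjusted p = 2.96e-24), Cxcr2 (5.52 ± 0.39, adjusted p = 2.80e-18), Cxcl10 (2.47 ± 0.32, adjusted p = 5.48e-10) and Cxcl9 (2.19 ± 0.37, adjusted p = 4.16e-07) were higher, and Cxcl14 was lower (-4.00 ± 0.34, adjusted p = 3.61e-16). The tissues within the classes overlapped for the ligands. Cxcl9 averaged 0.366 CPM in blood and 103 CPM in inguinal node, and 0 CPM in brain and 52.5 CPM in liver. For Cxcr3 the 6 immune means, 3.20 to 23.96 CPM, all stood above the 9 others, the highest of which was lung at 3.19 CPM. The lowest immune mean, that of thymus, was nearly equal to that of lung, so the classes met there. Of 13 further CXC genes 11 were tested, and 5 were called higher and 1 lower. Cxcr4, the receptor of Cxcl12, led them at 4.63 ± 0.09, and Ackr3, a scavenger of Cxcl12, was the lower one at -2.76 ± 0.19.

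Barrier tissues against internal organs gave 3 members called higher and none lower, where 14.5% and 15.5% of all genes were called. Cxcl14 (1.89 ± 0.22, adjusted p = 2.46e-11) and Cxcl16 (1.55 ± 0.14, adjusted p = 4.61e-15) were called under each of the alternatives run. Cxcl15 was called at an adjusted p of 0.000488, but colon held 1 read and skin 2, each in 1 library. Without colon replicate 3 or without skin replicate 1 the adjusted p was 1.00, a tissue without a read then standing on each side. Cxcl14 in colon (12.9 ± 4.37 CPM) was below brain and kidney, and Cxcl16 in kidney was above 4 of the 5 barrier tissues.

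Related tissues were last compared in pairs, each on its own 8 libraries. In the mesenteric against the inguinal lymph node 6 members could be tested, 2 were called lower and none higher. Of all 13164 genes tested there, 1.78% were called lower and 5.44% higher. Cxcl9 averaged 43.4 ± 11.3 CPM in mesenteric and 103 ± 29.9 CPM in inguinal nodes (log2 fold change -1.16 ± 0.21, adjusted p = 0.00226), and the libraries did not overlap. Cxcr3 averaged 10.95 ± 2.72 CPM in mesenteric and 23.96 ± 6.05 CPM in inguinal nodes (-1.06 ± 0.21, adjusted p = 0.00386), again without overlap. Without inguinal replicate 1 the changes were -0.97 and -0.89, short of the fold threshold with adjusted p of 0.00471 and 0.00965, and without mesenteric replicate 4 that of Cxcr3 was -0.94. Cxcl10 did not pass (0.77 ± 0.47, adjusted p = 0.228), nor did Cxcl14 (-0.33 ± 0.81, adjusted p = 0.78), Cxcr2 (-0.43 ± 0.19, adjusted p = 0.0976) or, for its size, Cxcl16 (-0.47 ± 0.15, adjusted p = 0.0296).

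Other genes moved with Cxcr3 in this pair. The 13 T and NK cell genes summed to 578 to 776 CPM in mesenteric and 1165 to 1461 CPM in inguinal nodes, and 4 B cell genes to 743 to 1052 CPM in mesenteric and 1224 to 1535 CPM in inguinal nodes. Cxcr6 was lower in mesenteric nodes (-1.05 ± 0.14, adjusted p = 0.000616). Tnf held 3.73, 6.91, 4.53 and 4.10 CPM in mesenteric and 27.1, 28.998, 17.9 and 17.1 CPM in inguinal nodes (-2.18 ± 0.25, adjusted p = 0.000289). Of the 14 interferon gamma genes tested, none was called in either direction, and their median was -0.18 against 0.02 over all genes. The part of lymphocyte content in the change of Cxcr3 was not tested.

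In small intestine against colon 3 members were tested and all were called higher, where 13.5% of all 10773 genes were called higher and 12.2% lower. Cxcl9 held 11.1, 10.9, 20.2 and 16.3 CPM in small intestine and 5.09, 0, 0.839 and 0 CPM in colon (log2 fold change 3.03 ± 0.58, adjusted p = 0.000268). Cxcl16 held 45.7, 44.01, 42.5 and 41.8 CPM in small intestine and 13.6, 10.3, 14.3 and 14.3 CPM in colon (1.58 ± 0.18, adjusted p = 7.84e-07). Cxcl14 was higher too (1.54 ± 0.22, adjusted p = 1.24e-05), and for each of the 3 the lowest small intestine library stood above the highest colon library. Among other CXC genes 3 of the 5 tested fell, namely Cxcl12, a stromal ligand of Cxcr4 (-1.39 ± 0.18), Pf4, a platelet chemokine (-1.89 ± 0.19), and Ackr3 (-1.38 ± 0.32). Of 13 interferon gamma genes 3 were higher, Gbp7, Ifngr2 and Jak2.

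Blood against bone marrow had 4 members to test, of which 1 was called higher and 2 lower, against 16.4% and 17.9% of all 11325 genes. Cxcl2 was higher (24.8 ± 22.8 CPM in blood and 1.05 ± 1.32 CPM in bone marrow, 4.60 ± 0.67, adjusted p = 4.09e-06), and the change was 3.70 without blood replicate 3. Cxcr2 was lower (32.6 ± 9.61 CPM in blood and 156 ± 7.75 CPM in bone marrow, -2.28 ± 0.16, adjusted p = 5.76e-11). Cxcl14 was lower as well, at 0.572 ± 0.70 CPM in blood and 10.6 ± 4.43 CPM in bone marrow (-4.11 ± 0.56, adjusted p = 1.88e-06). None of the 3 had overlapping libraries. Cxcr3 did not pass (-0.29 ± 0.29, adjusted p = 0.392). Blood is titled as mononuclear cells, so preparation and tissue cannot be told apart in this pair, also for Cxcr2. The platelet chemokine genes Pf4 and Ppbp were higher in blood (2.72 ± 0.14 and 1.90 ± 0.16), and 3 platelet marker genes summed to 1438 to 2128 CPM in blood and 170 to 251 CPM in bone marrow.

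Skin against female reproductive tract had 4 members to test, with 1 called higher and 1 lower, against 14.6% and 14% of all 12733 genes. Cxcl14 was higher in skin (2.17 ± 0.34, adjusted p = 0.000319), where each library stood above those of the reproductive tract. Cxcl5 was lower, with no read in skin and 579 in the reproductive tract (adjusted p = 0.000212), and the mean of the reproductive tract was at least 137-fold above skin, or at least 78.5-fold without its replicate 1. Cxcl16 (0.72 ± 0.39, adjusted p = 0.167) and Cxcl9 (-0.08 ± 0.33, adjusted p = 0.867) did not pass.

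**Figure D5:**
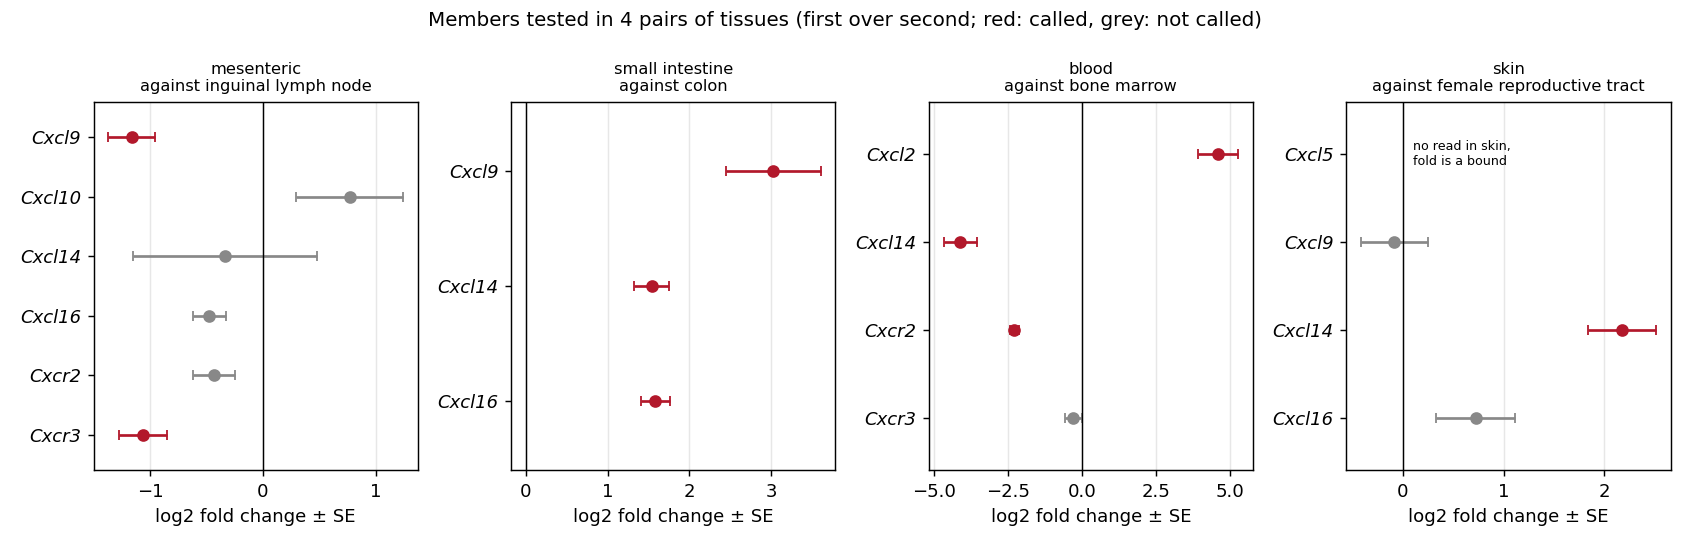
Log2 fold change ± SE of the members tested in 4 pairs of tissues, first named over second, with called members in red. Cxcl9 is below 0 in the lymph node pair at -1.16 and above 0 in the intestinal pair at 3.03, and Cxcl2 and Cxcr2 go opposite ways in blood against bone marrow. Cxcl5 has no point, since skin had no read.

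The genes most like each member were sought over the 15 tissue means by Pearson's r of log2(mean CPM + 1) among 15225 genes, as a description, since all genes share the libraries and their depth. Cxcl9 and Cxcl10 were each among the 3 nearest of the other (r = 0.83). Il18bp, a decoy receptor of interleukin 18, was nearest to Cxcl9 (0.84) and Dnase1l3, a nuclease of myeloid cells, to Cxcl10 (0.85). Bpifb1 and Scgb3a1, secreted airway proteins, and the surfactant gene Sftpa1 were nearest to Cxcl15 (0.97 to 0.98). Cxcr3 was nearest to Slc36a3os (0.98), Slamf7 and Gpr18 (both 0.95), and Cxcr2 to Gapt (0.97), Igsf6 and Klrb1f (both 0.95).

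Cxcl5 was closest to Foxl2os (0.96), Padi1, a peptidylarginine deiminase (0.95), and Zp3, a protein of the egg coat (0.95), all highest in the female reproductive tract. Cxcl16 was closest to Osmr, the oncostatin M receptor (0.87), Zmynd15 (0.83) and C1qtnf1 (0.83), of which Zmynd15 is its overlapping neighbour. Cxcl14 was near to Hspa2 and the clock gene Per3 (both 0.88). Cxcl1 and Cxcl2, the members with the fewest reads, had the loosest neighbours. These were Ccdc191 (0.83), Abca6 (0.82) and Pfkfb1 (0.81) for Cxcl1 and Ooep (0.80), Hspd1-ps4 (0.79) and Alox15 (0.77) for Cxcl2. Between Cxcl1 and Cxcl5 r was 0.45, and between Cxcl2 and Cxcl5 it was 0.74.

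The remaining CXC genes differed in where they were highest. Cxcl12 was highest in liver at 396 ± 55.9 CPM, Cxcl13, which draws B cells into follicles, in inguinal node and spleen at 225 ± 66.0 and 219 ± 9.46 CPM, and Cxcr5, its receptor, in blood at 86.9 ± 18.5 CPM. Cxcl17, a mucosal chemokine, was highest in the female reproductive tract at 61.6, 55.6, 35.3 and 254 CPM, replicate 4 being the highest. Cxcl3, another ligand of Cxcr2, reached 5.37 ± 4.62 CPM in the same tissue and at most 0.795 CPM elsewhere. Cxcl11 transcripts were highest in small intestine at 7.36 ± 2.27 CPM and liver at 5.24 ± 2.09 CPM. Cxcr1 stayed at or below 0.704 CPM in every tissue.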

How the data were processed

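RNA of 60 libraries, 4 from each of 15 mouse tissues, was sequenced from barcoded oligo(dT)-primed cDNA, per the labels' protocols. The authors deposited whole-number counts per gene for each library. FastQC, STAR, featureCounts and mm10 are named in the submitters' processing notes; no version or strand setting is named in what was used here. The labels' protocols describe no molecular identifiers, so counting intervals and floors cover counting error only.

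Counts were analysed with edgeR 4.0.16 (R 4.3.3). Genes passing filterByExpr (minimum count 10, minimum total 15) were scaled by TMM and fitted with the quasi-likelihood test, with Benjamini-Hochberg adjustment over all genes tested. The fit of 60 libraries served the contrasts of each tissue and of tissue classes, and each pair of tissues had its own fit of 8 libraries. The SE is the log2 fold change divided by the root of its F statistic. Of 54532 genes 17394 had no read. The upper limit for a tissue without a read is 3 counts over its 4 libraries. The procedure was tested on simulated data with fewer tissues and with genes above a minimum mean count. That test was not built to include tissues without a read or single high libraries, and does not cover such calls. DESeq2 1.42.0, limma 3.58.1, other scalings, no filter, a replicate block and left-out libraries were alternatives. For single left-out libraries the genes tested and the trended dispersion of the full fit were kept, and only the contrasts of that library's tissue and of tissue classes were recomputed.

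The named genes are the 10 members, up to 4 genes of each other list by level or change, any that went against their list, and the 3 genes most like each member. Some genes that this rule names are not reported here. Genes named outside this rule were chosen after their values were seen. The members and lists were chosen with earlier results of these data known. The labels do not say that a replicate number marks the same mouse in each tissue, and the main fits have no block.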

Additional observations from a re-analysis of the deposited data

Results flagged for a closer look

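Of 70 sets of 4 libraries (a member in a tissue with a mean of at least 2 CPM), 4 held a library whose gap to the nearest other, relative to the range of the set, was above Dixon's 95% critical value. Chance gives this in about 1 in 20 sets. Cxcl1 was at 28.1 CPM in female reproductive tract replicate 4, against 0 to 1.70 CPM in the other 3. Cxcl1 was at 6.46 CPM in blood replicate 3, against 0 to 0.852 CPM in the others. Cxcr2 was at 10.3 CPM in inguinal lymph node replicate 4, against 16.1 to 16.9 CPM in the others. Cxcr2 was at 9.69 CPM in female reproductive tract replicate 1, against 0 to 1.40 CPM in the others.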

How the results depend on the processing

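Of 474 values of the 79 called member results under other processing, 451 kept their direction and call, 22 lost the call and 1 changed sign. With libraries left out, 1109 of 1150 kept both, 37 lost the call and 4 changed sign. The changes of sign were Cxcl1 in blood (-0.51 without blood replicate 3, and -0.45 to 2.02 with each replicate number left out) and Cxcr2 in the female reproductive tract (-0.55 with limma-trend, -0.23 without its replicate 1, and -0.11 to 2.24 with each replicate number left out). The 9 calls of a lower level became 37 with DESeq2's Wald test, 46 with limma-trend and 5 without replicate 3, and were 9 without each other replicate number. Barrier tissues against internal organs gave 5 calls with library totals and 7 with DESeq2's Wald test, in place of 3. Without a filter, blood against bone marrow gave 5 calls in place of 3, and skin against female reproductive tract 6 in place of 2. The skin pair gave 5 without the libraries in doubt, chosen after seeing the data, and 2 to 4 with single libraries left out. The lymph node pair gave 0 to 2 calls with single libraries left out. With the replicate number as a block, the counts were 52 higher and 9 lower over tissues, 5 for immune and 4 for barrier tissues, and 2, 3, 3 and 2 for the pairs of lymph nodes, intestine, blood and bone marrow, and skin and female reproductive tract. Of 420 pairs of same-numbered libraries 7 correlated above 0.1 in their deviations from the tissue means, and the median was 0.016, against -0.0057 for different numbers. Of 60 libraries 48 correlated best with one of their own number, a hint of pairing from the data and not from the design. Library totals in place of TMM shifted the log2 fold changes of all genes by -1.06 in liver, -1.36 in heart, 0.45 for immune and 0.88 for barrier tissues. Levels under about 2 CPM rest on a few reads, where small differences may go undetected at this depth. Some calls were made at such levels, among them that of Cxcl2 in thymus, which was lost under 6 alternatives.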
